A study of Mus musculus with 8 samples.

Results

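The genes described here build the peroxisome, bring lipids into it and oxidise them there. They were chosen by name, as 41 gene symbols for peroxins (the Pex proteins), peroxisomal membrane proteins and peroxisomal lipid enzymes. Earlier results of these data were known when they were chosen. Of these, 40 were among the 15521 genes of the deposited table and all 40 passed the filter on low counts that left 11621 genes for testing. Acox2 was not analysed here.

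Peroxisomes are small organelles bounded by a single membrane. Their matrix enzymes are made in the cytosol and imported folded through a docking complex of peroxins, and the organelle multiplies by growth and division. Inside, acyl chains too long or too branched for mitochondria are shortened by beta-oxidation, whose oxidases pass electrons to oxygen and form hydrogen peroxide, which catalase removes. Peroxisomes also begin the synthesis of ether lipids, a class of phospholipid found in lung surfactant and in macrophage membranes. In rodent liver many of these genes are known to be raised by fatty acids and drugs that act on peroxisome proliferator-activated receptors.

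The cells were alveolar macrophages, the phagocytes that live in the air spaces of the lung, washed from mouse lungs and purified by 2 h of adherence. All groups were kept in medium with GM-CSF (10 ng/ml), the growth factor on which these cells depend. Cells were pretreated for 2 h with the solvent DMSO (vehicle) or with MSDC at 10 µM, and were then left alone or given Poly(I:C), a synthetic double-stranded RNA, at 5 µg/mL for 24 h. The series text calls the Poly(I:C) step an overnight one. How long cells without Poly(I:C) stayed in culture is not given here, and the part of culture time in the Poly(I:C) differences was not tested. This gave 4 groups of 2 libraries each, namely vehicle alone, MSDC alone, Poly(I:C) in cells pretreated with vehicle, and Poly(I:C) in cells pretreated with MSDC. Compounds whose code names begin with MSDC are known as inhibitors of the carrier that takes pyruvate into mitochondria, and the labels do not tell which compound it was. The strain entry of the labels repeats the treatment, and no mouse strain, age or genotype is used here.

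The libraries held 28762425 to 29493223 counts. Correlations of log2 depth-scaled counts were 0.9899 to 0.9932 within groups and at most 0.9769 between groups. Separate cultures or animals are not stated for the replicates, so the p-values cover only the variation among these libraries, which could be technical. Of 14 alveolar macrophage markers, all were present, with Chil3 at up to 8579 TPM (a transcript level corrected for gene length and depth). Among markers of other cells, fibroblast genes summed to at most 0.40 TPM, endothelial genes to at most 1.69, T cell genes to at most 0.78 and B cell genes to at most 0.16. Type 1 pneumocyte and airway genes summed to 5.55 to 11.3 TPM. Type 2 pneumocyte genes summed to 26.7 to 38.8 TPM, nearly all of it Abca3, with Sftpa1 at 0 and Sftpc at most 0.09. Hepatocyte genes, from a cell rich in peroxisomes, summed to at most 1.18 TPM over the 2 of 4 that the table held. The single neutrophil marker in the table, of 5, was S100a8, at 24.9 to 46.1 TPM.

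In cells treated with vehicle, 9 of the 40 genes were under 10 TPM and 5 were over 100. The highest were Ech1 at 158.5 TPM, Hsd17b4 at 149.8 and Acox3 at 139.6 (means of 2 libraries), all enzymes of beta-oxidation, followed by Cat at 127.4 and Crat at 110.4. With MSDC, 8 genes were over 100 TPM. The summed level of the 40 genes was 1687 and 1662 TPM with vehicle, 2937 and 2819 with MSDC, 1484 and 1507 with vehicle before Poly(I:C), and 2594 and 2729 with MSDC before Poly(I:C). Both pairs of MSDC libraries were therefore above both pairs without it. The same order held without Acaa1b, the gene with the largest change, where the sums were 1679 and 1655 TPM, 2548 and 2456, 1479 and 1502, and 2343 and 2454. In bulk samples fewer cells and less RNA per cell cannot be told apart.

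**Figure D1:**
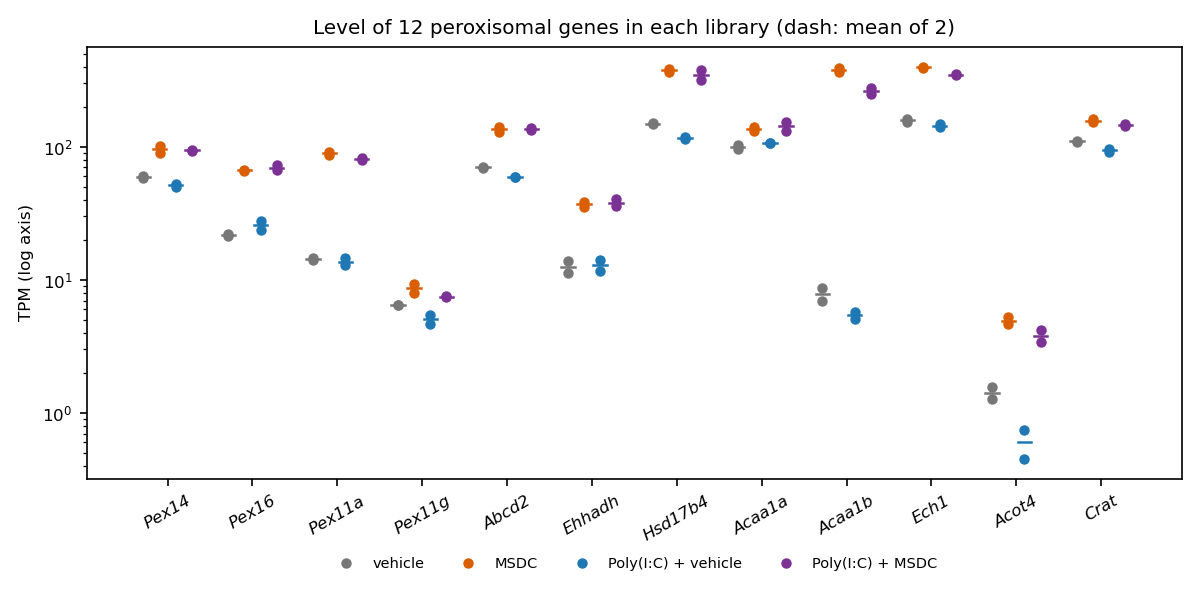
Level of 12 of the peroxisomal genes in each library, in TPM on a log axis; points are libraries, dashes the mean of the 2 libraries of a group, and colours the 4 groups. Acaa1b lies between 5.12 and 8.69 TPM without MSDC and between 251 and 389 TPM with it, the widest gap of the 12. All 12 were called higher with MSDC among cells given Poly(I:C), so the gap between their groups follows from how they were picked.

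The first question was how the genes differed between MSDC and vehicle in cells without Poly(I:C). A gene was called changed at an adjusted p under 0.05 (edgeR quasi-likelihood test, Benjamini-Hochberg over all 11621 genes). MSDC went with 15 of the 40 genes higher and 2 lower, that is 42.5% called, against 23.5% of all genes tested (11.1% higher and 12.4% lower). Of the 15, 9 were at least 1.5-fold higher, a size reached by 4.52% of all genes tested. The median log2 fold change was 0.19 over the 40 genes and near 0 over all genes. Because earlier results were known when the genes were chosen, the shares set against all genes describe the list and do not test it.

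The second question was the same contrast in cells given Poly(I:C), which uses the other 4 libraries. Here 20 genes were higher and 2 lower, or 55% called, against 26.1% of all genes tested (12.5% higher and 13.6% lower). At least 1.5-fold higher were 11 genes, against 4.87% of all genes. The median was 0.23. In both settings the same 15 genes were called higher and the same 2, Phyh and Far1, lower. Pex11g, Scp2, Agps, Cat and Lonp2 were called only in the presence of Poly(I:C), 18 genes in neither setting, and none in opposite directions. S100a8 also stood higher with MSDC in each setting, at 38.6 and 46.1 TPM against 24.9 and 31.8 in cells without Poly(I:C), and at 41.9 and 31.9 against 27.2 and 27.7 with it. The alveolar macrophage markers moved with MSDC as well. In each setting 8 of the 14 were higher and 4 lower (85.7% called, by the same edgeR test), which their sum does not show. Chil3 stood at 8536 and 8579 TPM with vehicle and 4807 and 4697 with MSDC, and Plet1 at 2505 and 2502 against 1713 and 1623. Marco stood at 324 and 399 TPM against 1019 and 1041, and Krt79 at 5.71 and 6.74 against 91.8 and 85.3. The part of these markers in the counts was not tested.

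**Figure D2:**
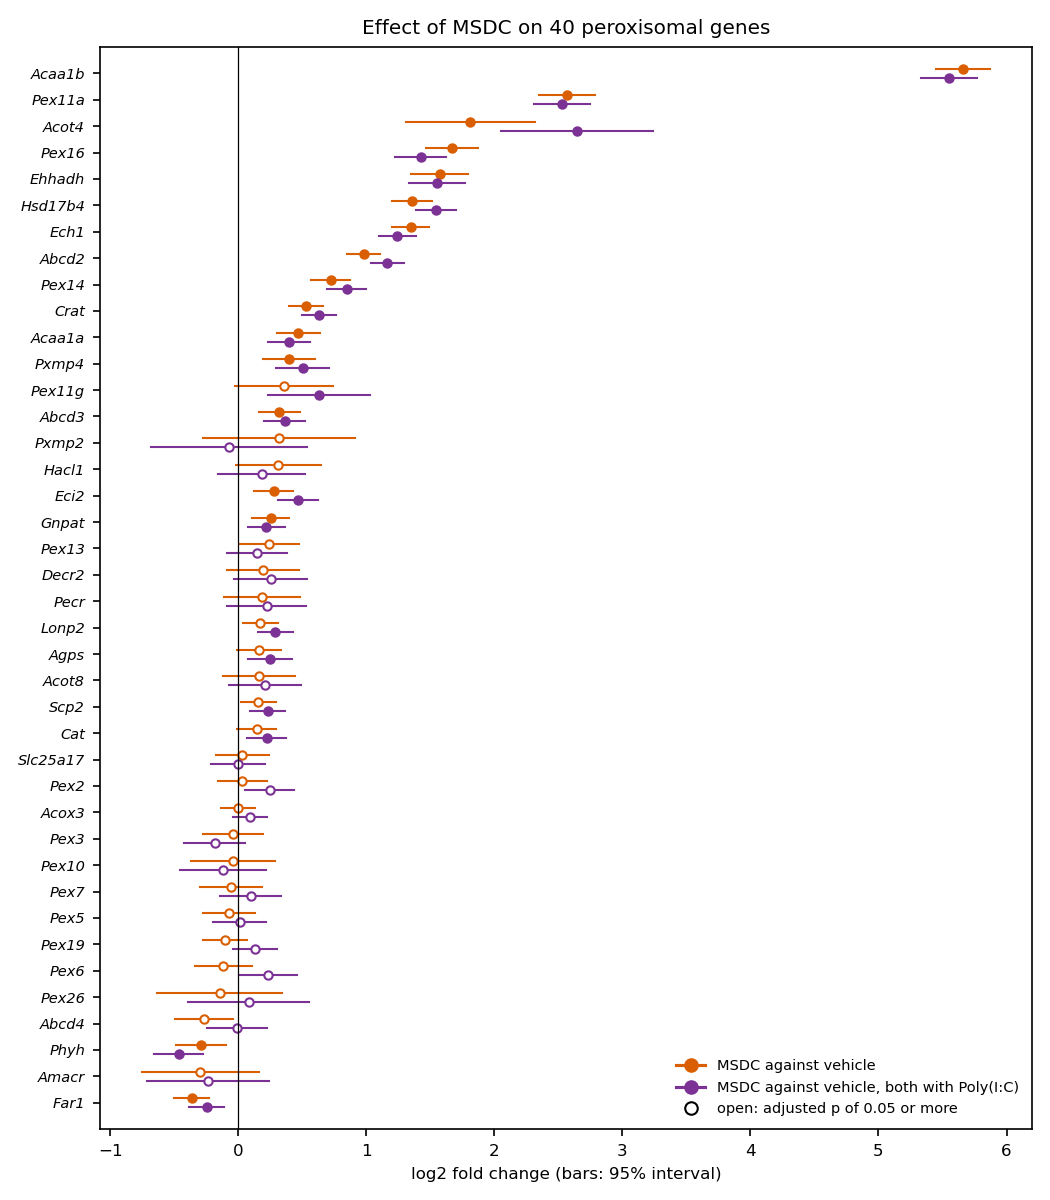
Log2 fold change of MSDC against vehicle for the 40 genes, in cells without and with Poly(I:C); bars are 95% intervals not adjusted for the number of genes, and filled points have an adjusted p under 0.05. Acaa1b stands alone at 5.66 and 5.55, followed by Pex11a and Acot4, while most peroxins lie near 0 with open points.

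Among the 11 peroxins of matrix import and membrane biogenesis, 2 were higher in each setting, Pex16 and Pex14. That is 18.2%, against 11.1% and 12.5% of all genes tested, so the share called is not far from that of all genes. Pex16, a membrane protein that recruits other membrane proteins to the forming organelle, stood at 21.2 and 22.0 TPM with vehicle and 67.5 and 65.8 with MSDC. After Poly(I:C) it stood at 28.0 and 23.7 TPM with vehicle and 66.8 and 72.5 with MSDC. No library with MSDC overlapped one without. The log2 fold change was 1.67 (SE 0.09, adjusted p = 2.21e-09) without Poly(I:C) and 1.42 (SE 0.09, adjusted p = 9.99e-09) with it.

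Pex14, part of the docking complex that receives the import receptor, stood at 60.1 and 58.2 TPM with vehicle and 102 and 90.0 with MSDC. With Poly(I:C) it stood at 49.98 and 52.81 TPM with vehicle and 95.3 and 93.7 with MSDC. The groups again did not overlap, and the log2 fold changes were 0.72 (SE 0.07, adjusted p = 1.43e-06) and 0.85 (SE 0.07, adjusted p = 2.45e-07). An antisense gene covers 28.3% of the exon bases annotated for Pex14, and whether reads were counted by strand is not stated, so reads of the pair may not be separated.

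The other 9 peroxins of this group were called in neither setting. They were the import receptors Pex5 and Pex7, the docking partner Pex13, the ubiquitin ligase subunits Pex2 and Pex10, the receptor recycling genes Pex6 and Pex26, and the membrane biogenesis genes Pex3 and Pex19. Their mean levels ran from 2.32 to 31.7 TPM. Their log2 fold changes with MSDC ran from -0.18 to 0.25 over both settings, with 95% intervals between -0.63 and 0.55, or 0.645- to 1.47-fold. Pex13 in cells without Poly(I:C), and Pex2 and Pex6 in cells with it, had an unadjusted p under 0.05 in the edgeR test. So did 3752 of all 11621 genes tested without Poly(I:C) and 4195 with it.

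The Pex11 proteins shape and elongate the membrane before division. Pex11a stood at 14.7 and 14.1 TPM with vehicle and 92.3 and 86.3 with MSDC. After Poly(I:C) the levels were 12.8 and 14.6 TPM with vehicle and 79.4 and 83.1 with MSDC. The level with MSDC was thus 5.93-fold that of vehicle (95% interval 5.10 to 6.90) without Poly(I:C) and 5.78-fold (4.96 to 6.73) with it, with adjusted p = 4.83e-11 and 6.23e-11. By level it moved from position 27 among the 40 genes with vehicle to position 10 with MSDC.

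Pex11g was far lower, at 6.44 and 6.45 TPM with vehicle, 8.04 and 9.26 with MSDC, 4.66 and 5.46 with Poly(I:C) and vehicle, and 7.46 and 7.54 with Poly(I:C) and MSDC. The libraries did not overlap in either setting. Its log2 fold change was 0.36 (SE 0.18, adjusted p = 0.185) without Poly(I:C) and 0.63 (SE 0.19, adjusted p = 0.0207) with it. The call was lost without Poly(I:C) vehicle replicate 1 (0.45, adjusted p = 0.174), without either library of Poly(I:C) with MSDC (adjusted p = 0.0806 and 0.0853) and with DESeq2 (adjusted p = 0.0636). A gene on the opposite strand overlaps 41.1% of its exon bases.

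Of 6 transporters and membrane proteins, 3 were higher with MSDC in each setting, all called in both. That is 50%, against 11.1% and 12.5% of all genes tested. Abcd2, which carries very long chain and polyunsaturated acyl groups into the organelle, stood at 70.9 and 69.2 TPM with vehicle and 142 and 129 with MSDC. In the Poly(I:C) groups it stood at 59.3 and 59.8 TPM with vehicle and 135 and 138 with MSDC. The groups did not overlap, and the level was 1.97-fold (95% interval 1.80 to 2.16) and 2.24-fold (2.05 to 2.45) that of vehicle, with adjusted p = 5.8e-09 and 8.87e-10.

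Abcd3, the related transporter for branched and dicarboxylic acyl groups, differed less, with log2 fold changes of 0.32 (adjusted p = 0.00471) and 0.36 (adjusted p = 0.00182). Pxmp4, a membrane protein, stood at 41.2 and 44.6 TPM with vehicle, 51.0 and 58.2 with MSDC, 34.9 and 31.0 with Poly(I:C) and vehicle, and 48.6 and 45.3 with Poly(I:C) and MSDC. Its log2 fold changes were 0.39 (SE 0.10, adjusted p = 0.00612) and 0.50 (SE 0.10, adjusted p = 0.00106). Without Poly(I:C), the call for Abcd3 was lost without MSDC replicate 1 (0.26, adjusted p = 0.0906) and that for Pxmp4 without MSDC replicate 2 (0.28, adjusted p = 0.143). Abcd4, Slc25a17, a carrier of cofactors, and Pxmp2, a channel, were called in neither setting, with 95% intervals between -0.68 and 0.91.

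Beta-oxidation held the gene with the largest difference, Acaa1b, while Pex11a and Acot4, which came next, belong to other groups. Of 7 beta-oxidation genes measured, 4 were higher without Poly(I:C), namely Ehhadh, Hsd17b4, Acaa1a and Acaa1b, and Scp2 joined them with Poly(I:C). That is 57.1% and 71.4%, against 11.1% and 12.5% of all genes tested. The promoter sequences of Acaa1b, Acaa1a, Ehhadh and Acot4, a thioesterase described further on, are printed. The first pair were taken as close copies that moved by very different amounts. Ehhadh and Acot4 are examples from the genes at least 2-fold higher in both settings, not all of which are printed. Each is the 120 bases directly before the 1 transcription start that the RefSeq promoter table (GRCm38.p6) gives for the gene, read 5′ to 3′ on the strand of the gene. Acaa1b is taken from chr9:119157094-119157213 on the minus strand, Acaa1a from chr9:119341174-119341293 on the plus strand, Ehhadh from chr16:21787835-21787954 on the minus strand and Acot4 from chr12:84038259-84038378 on the plus strand. The windows of Acaa1b and Ehhadh lie outside the RefSeq gene spans, whereas those of Acaa1a and Acot4 begin 146 and 1005 bases inside the spans, which open at an earlier start. No window overlapped an exon of the GENCODE annotation. Capitals mark a match described with Acot4.
Acaa1b: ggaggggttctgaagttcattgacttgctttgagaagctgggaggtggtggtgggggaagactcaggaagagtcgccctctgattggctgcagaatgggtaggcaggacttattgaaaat
Acaa1a: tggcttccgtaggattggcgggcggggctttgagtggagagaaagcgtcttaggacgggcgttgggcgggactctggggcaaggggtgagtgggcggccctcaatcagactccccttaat
Ehhadh: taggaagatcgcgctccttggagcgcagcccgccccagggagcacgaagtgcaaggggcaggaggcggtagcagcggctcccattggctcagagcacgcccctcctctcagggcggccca
Acot4: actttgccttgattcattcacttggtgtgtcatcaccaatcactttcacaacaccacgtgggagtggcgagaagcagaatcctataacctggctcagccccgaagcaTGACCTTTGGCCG

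Acaa1b encodes a peroxisomal thiolase, the enzyme of the last step, which splits off acetyl-CoA. It stood at 8.69 and 6.93 TPM with vehicle and at 389 and 363 with MSDC. In the Poly(I:C) groups it stood at 5.72 and 5.12 TPM with vehicle and at 251 and 275 with MSDC. No library of a group with MSDC came near one without. The level was 50.5-fold that of vehicle (95% interval 43.6 to 58.4, adjusted p = 9.25e-15) without Poly(I:C) and 46.9-fold (40.4 to 54.6, adjusted p = 1.22e-14) with it. Ordered by TPM among the 40 genes, Acaa1b moved from position 34 with vehicle to position 3 with MSDC.

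Acaa1a encodes the other peroxisomal thiolase and lies on the same chromosome, 183934 bases from Acaa1b by their RefSeq gene spans. It stood at 96.5 and 103 TPM with vehicle and 140 and 131 with MSDC, and at 106 and 107 with Poly(I:C) and vehicle against 132 and 154 with Poly(I:C) and MSDC. The log2 fold changes were 0.47 (SE 0.08, adjusted p = 0.000294) and 0.40 (SE 0.08, adjusted p = 0.00116). The ratio of Acaa1b to Acaa1a in TPM was 0.0901 and 0.0674 with vehicle and 2.77 and 2.78 with MSDC, so the less abundant of the pair became the more abundant. With Poly(I:C) the ratio was 0.0539 and 0.0481 with vehicle and 1.90 and 1.78 with MSDC.

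The 120 bases printed above for the pair were 71.1% identical over 97 aligned positions, with no shared run longer than 8. Their longest coding transcripts, by contrast, were 93.5% identical over 1638 aligned bases, with an identical run of 327. Counts of both genes were not whole numbers in any of the 8 libraries, so reads had been divided between genes or transcripts, and the split between the copies is uncertain. The sum of both does not rest on that split. It was 105 and 110 TPM with vehicle, 529 and 494 with MSDC, 112 and 112 with Poly(I:C) and vehicle, and 383 and 429 with Poly(I:C) and MSDC. Acaa1a also shares 6.57% of its exon bases with Myd88 on the opposite strand, which reached 136.3 TPM.

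Ehhadh and Hsd17b4 encode the bifunctional enzymes that carry out the hydration and dehydrogenation steps, Ehhadh mainly for straight chains and dicarboxylic acids and Hsd17b4 for very long and branched chains. Ehhadh stood at 13.9 and 11.3 TPM with vehicle, 38.5 and 35.5 with MSDC, 11.7 and 14.0 with Poly(I:C) and vehicle, and 36.0 and 40.4 with Poly(I:C) and MSDC. The groups with and without MSDC did not overlap, and the log2 fold changes were 1.57 (SE 0.10, adjusted p = 1.25e-08) and 1.55 (SE 0.10, adjusted p = 1.33e-08).

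Hsd17b4 began about an order of magnitude higher, at 152 and 148 TPM with vehicle, and stood at 387 and 366 with MSDC. After Poly(I:C) it stood at 115 and 119 TPM with vehicle and at 319 and 380 with MSDC. The log2 fold changes were 1.36 (SE 0.07, adjusted p = 1.35e-09) and 1.54 (SE 0.07, adjusted p = 3.12e-10). The fold for this abundant enzyme was thus of the same order as that for Ehhadh.

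Scp2, whose long product is a thiolase for branched and bile acid chains, differed little, at 81.3 and 79.8 TPM with vehicle and 88.4 and 88.1 with MSDC. Its log2 fold change was 0.16 (adjusted p = 0.0895) without Poly(I:C) and 0.23 (adjusted p = 0.0135) with it. The second call was lost without either library of Poly(I:C) with vehicle (adjusted p = 0.0603 and 0.0925) and without Poly(I:C) MSDC replicate 2 (adjusted p = 0.126). Acox3, an oxidase for branched acyl chains and one of the most abundant of the 40 genes, stood at 146 and 133 TPM with vehicle and 142 and 132 with MSDC. Its 95% interval was -0.14 to 0.13 without Poly(I:C) and -0.04 to 0.23 with it, and it was called in neither. Amacr, a racemase for branched chains, was not called either, at 3.11 to 5.49 TPM.

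Auxiliary enzymes prepare unsaturated acyl chains for beta-oxidation, and 2 of 4 were higher in each setting. That is 50%, against 11.1% and 12.5% of all genes tested. Ech1, a dienoyl-CoA isomerase with a targeting signal for both peroxisomes and mitochondria, stood at 154 and 163 TPM with vehicle and 392 and 401 with MSDC. In the Poly(I:C) groups it stood at 149 and 140 TPM with vehicle and 349 and 350 with MSDC. The level was 2.55-fold (95% interval 2.305 to 2.813, adjusted p = 6.61e-10) and 2.37-fold (2.14 to 2.62, adjusted p = 1.35e-09) that of vehicle, and no libraries overlapped.

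Eci2, an enoyl-CoA isomerase, differed less, with log2 fold changes of 0.28 (adjusted p = 0.00943) and 0.47 (adjusted p = 0.000129). The first call was lost without vehicle replicate 1 (0.21, adjusted p = 0.065), without MSDC replicate 1 (0.28, adjusted p = 0.0672) and without MSDC replicate 2 (0.26, adjusted p = 0.0935). The reductases Decr2 and Pecr were called in neither setting, with log2 fold changes of 0.18 to 0.25 and 95% intervals between -0.11 and 0.54.

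Thioesterases release free acids from acyl-CoA, and Crat moves short acyl groups to carnitine for export. Acot4, a thioesterase for succinyl-CoA, was the least abundant of the 40 genes with vehicle. It stood at 1.27 and 1.56 TPM with vehicle and 5.24 and 4.63 with MSDC, and at 0.75 and 0.45 with Poly(I:C) and vehicle against 3.44 and 4.20 with Poly(I:C) and MSDC. Its lowest library held 15 counts, the lowest count of any of the 40 genes. The log2 fold changes were 1.81 (SE 0.24, adjusted p = 2.55e-05) and 2.65 (SE 0.28, adjusted p = 2.39e-06). With Poly(I:C) the value ranged from 1.59, with limma on log2(TPM + 1), to 3.08, without Poly(I:C) vehicle replicate 1, and stayed called throughout.

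The capitals in the Acot4 sequence mark bases 13 to 1 before the start. On the opposite strand these read CGGCCAAAGGTCA, a match with 2 mismatches to the direct repeat of AGGTCA with 1 base of any kind between the copies, the form of element bound by pairs of nuclear receptors. The match contains the shorter motif AGGTCA, which overlaps it. In the 250 bases before the start, on both strands and with up to 2 mismatches, the direct repeat was found for Acot4 and Cat, or 2 of the 33 genes (6.06%) whose symbols were in the promoter table, against 3.72% of 27025 genes. The exact motif AGGTCA was found for Acot4, Cat, Pex11g and Scp2, or 12.12% of the 33, against 15.76% of all genes. These are matches of letters and not binding sites, and these windows of Acaa1b, Pex11a and Ehhadh held neither.

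Crat stood at 110 and 111 TPM with vehicle, 163 and 153 with MSDC, 91.7 and 97.0 with Poly(I:C) and vehicle, and 150 and 143 with Poly(I:C) and MSDC. The groups did not overlap, and its log2 fold changes were 0.53 (SE 0.06, adjusted p = 1.07e-05) and 0.63 (SE 0.06, adjusted p = 1.54e-06). Acot8, a thioesterase of broad substrate range, was called in neither setting, with log2 fold changes of 0.16 and 0.21.

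The genes that were lower came from alpha-oxidation and ether lipid synthesis. Phyh, the hydroxylase that begins the breakdown of phytanic acid, stood at 34.5 and 34.6 TPM with vehicle and 29.3 and 26.3 with MSDC. In the Poly(I:C) groups it stood at 40.4 and 43.8 TPM with vehicle and 31.7 and 30.7 with MSDC. It was 1.22-fold lower without Poly(I:C) (adjusted p = 0.0317) and 1.38-fold lower with it (adjusted p = 0.000966). The first call was lost without vehicle replicate 2 (adjusted p = 0.0989), without MSDC replicate 2 (0.227), with DESeq2 (0.0654) and in a fit to these 2 groups alone (0.0536). Hacl1, the lyase of the same pathway, was called in neither setting, with log2 fold changes of 0.31 and 0.18. A gene on the same strand, absent from the deposited table, shares 31.1% of the exon bases of Hacl1, so reads of the pair may not be separated.

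Gnpat and Agps make the ether bond in successive steps, and Far1 reduces the acyl-CoA to the fatty alcohol they use. Far1 stood at 80.8 and 71.8 TPM with vehicle and 58.9 and 57.4 with MSDC, and at 68.3 and 67.6 with Poly(I:C) and vehicle against 58.5 and 59.0 with Poly(I:C) and MSDC. It was 1.29-fold lower (adjusted p = 0.000461) and 1.18-fold lower (adjusted p = 0.00985). Gnpat moved the other way, at 49.1 and 47.8 TPM with vehicle, 58.3 and 55.1 with MSDC, 43.2 and 40.4 with Poly(I:C) and vehicle, and 49.6 and 50.1 with Poly(I:C) and MSDC. It had log2 fold changes of 0.25 (adjusted p = 0.0114) and 0.22 (adjusted p = 0.0242). Agps was called only in the Poly(I:C) groups, at 0.16 (adjusted p = 0.169) and 0.25 (adjusted p = 0.0302).

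Several of these calls were lost on leaving out 1 library, which also leaves its group with a lone library. The estimates moved less than the calls. With Poly(I:C), over all alternatives, Agps ran from 0.22 to 0.28, Far1 from -0.25 to -0.21 and Gnpat from 0.17 to 0.27. Without Poly(I:C), Gnpat was lost without MSDC replicate 1 (0.21, adjusted p = 0.14) or 2 (0.27, adjusted p = 0.0556). With Poly(I:C), Gnpat was lost without Poly(I:C) vehicle replicate 2 (0.17, adjusted p = 0.188) and without either library of Poly(I:C) with MSDC (adjusted p = 0.101 and 0.0921). Far1 was lost there without Poly(I:C) vehicle replicate 1 (adjusted p = 0.0729) and without either library of Poly(I:C) with MSDC (0.0563 and 0.0678). Agps was lost on leaving out any 1 of those 4 libraries (adjusted p = 0.0783 to 0.157) and with limma on TPM (0.0611).

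Cat, catalase, and Lonp2, a protease of the peroxisomal matrix, were called only with Poly(I:C). Cat stood at 106 and 113 TPM with Poly(I:C) and vehicle and 133 and 129 with Poly(I:C) and MSDC, a log2 fold change of 0.22 (adjusted p = 0.0299). Lonp2 stood at 42.5 and 45.4 TPM against 54.0 and 56.3, a log2 fold change of 0.29 (adjusted p = 0.00328). Without Poly(I:C) the values were 0.14 (adjusted p = 0.178) and 0.17 (adjusted p = 0.0699). The call for Cat was lost without Poly(I:C) vehicle replicate 1 (0.18, adjusted p = 0.219) and without either library of Poly(I:C) with MSDC (0.19, adjusted p = 0.171, and 0.26, adjusted p = 0.0681).

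Whether the MSDC difference itself depended on Poly(I:C) was tested as an interaction. None of the 40 genes was called (edgeR quasi-likelihood test), against 0.224% of all genes tested, and the smallest adjusted p was 0.728. At an unadjusted p under 0.05 in the same edgeR test there were 756 of all 11621 genes tested, and 3 of the 40, all positive. These were Acot4 at 0.83 (edgeR adjusted p = 0.759), Pex6 at 0.35 (adjusted p = 0.728) and Abcd2 at 0.18 (adjusted p = 0.76). DESeq2 and limma also called 0. For the 5 genes called only with Poly(I:C), the interaction ran from 0.07 for Scp2 to 0.27 for Pex11g, whose 95% interval was -0.28 to 0.83. For Acaa1b it was -0.10 (95% interval -0.42 to 0.21) and for Pex11a -0.04 (-0.35 to 0.27). Across the 40 genes the log2 fold changes of the 2 settings had a Pearson r of 0.983 (Spearman rho 0.884), or 0.959 without Acaa1b, against 0.745 across all genes tested. Each setting has its own 4 libraries, genes are not independent replicates, and the 40 points share those libraries. Since the 40 were chosen with earlier results known, their r set against that of all genes describes the list and does not test it. The median absolute difference between the settings was 0.11.

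The third question was how these genes differed with Poly(I:C). In vehicle cells 1 gene was higher and 3 lower, or 10% called, against 11.6% of all genes tested (7.52% higher and 4.1% lower), so the share of genes called was near that of all genes. None was higher by 1.5-fold or more, against 3.73% of all genes. The median log2 fold change was -0.10, against 0 over all genes tested. Of the 40 estimates 29 were below 0 and 11 above it, against 5809 above it among all 11621 genes. The summed level of the alveolar macrophage markers was also lower in this group, at 22157 to 22564 TPM against 24557 to 25432 in the other groups. The sum follows its most abundant genes, with Chil3 at 6526 and 6320 TPM and Plet1 at 1942 and 1875 in this group. Of the 14 markers 3 were higher and 4 lower, and Ear2 stood at 1448 and 1418 TPM against 977 and 980 with vehicle. Their part in these values was not tested.

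Phyh was the gene that was higher, by 0.35 on the log2 scale (SE 0.09, adjusted p = 0.017). Acot4 was lower by 2.31-fold (log2 fold change -1.21, SE 0.31, adjusted p = 0.0187). Hsd17b4 was 1.23-fold lower (-0.29, SE 0.07, adjusted p = 0.0137) and Pxmp4 1.25-fold lower (-0.32, SE 0.10, adjusted p = 0.0499). For each of the 4, picked as called from these same libraries, the groups did not overlap, as the levels given above show.

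These calls were sensitive to the libraries and to scaling. Phyh was lost without vehicle replicate 1 (adjusted p = 0.058) and without Poly(I:C) vehicle replicate 2 (0.159). Acot4 was lost without vehicle replicate 2 (-1.03, adjusted p = 0.0824) and without Poly(I:C) vehicle replicate 2 (-0.90, adjusted p = 0.134), and in the compared groups alone (adjusted p = 0.0919), and its value was -0.60 with limma on log2(TPM + 1). Hsd17b4 was lost without Poly(I:C) vehicle replicate 1 (adjusted p = 0.082). Pxmp4 was lost without vehicle replicate 2 (0.15), Poly(I:C) vehicle replicate 2 (0.267) or either library of Poly(I:C) with MSDC (0.0665 and 0.0511), with a replicate block (0.06) and in the compared groups alone (0.0949). Scaled by library totals alone, 8 of the 40 genes were lower in place of 3, the median over all genes moved to -0.05, and the share of all called genes that were higher went from 64.7 to 45.7%.

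In MSDC cells Poly(I:C) went with 0 of the 40 genes higher and 1 lower, or 2.5% called, against 6.32% of all genes tested (4.82% higher, 2.87% higher by at least 1.5-fold, and 1.5% lower; edgeR quasi-likelihood test). At an unadjusted p under 0.05 in the same test, 0 of the 40 were higher and 4 lower, against 1908 of all 11621 genes in either direction. The called gene was Acaa1b, which stood at 389 and 363 TPM with MSDC and at 251 and 275 with Poly(I:C) and MSDC, 1.43-fold lower (log2 fold change -0.51, SE 0.07, adjusted p = 0.000184). In vehicle cells Acaa1b was 1.33-fold lower with Poly(I:C) (-0.41, SE 0.13) at an adjusted p of 0.0506. Gnpat (-0.18, adjusted p = 0.148), Ech1 (-0.17, adjusted p = 0.161) and Pxmp4 (-0.21, adjusted p = 0.288) had the next smallest p. The median over the 40 genes was -0.05.

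**Figure D3:**
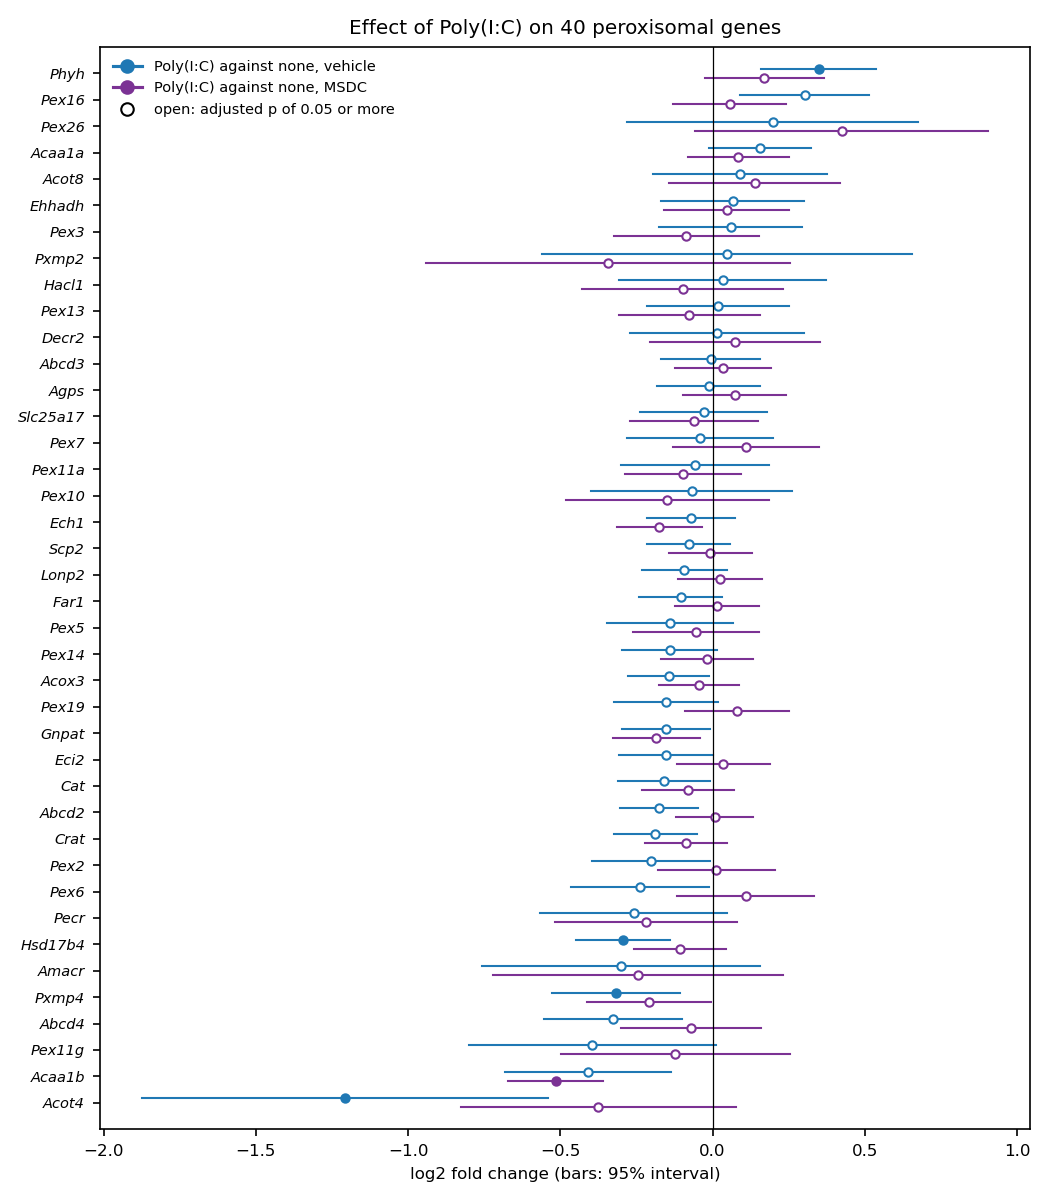
Log2 fold change with Poly(I:C) for the 40 genes, in vehicle cells and in MSDC cells; bars are 95% intervals not adjusted for the number of genes, and filled points have an adjusted p under 0.05. Most points lie slightly below 0 and are open; Acot4 at -1.21 in vehicle cells and Acaa1b at -0.51 in MSDC cells are the lowest called values in their comparisons.

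A wider list of genes linked to peroxisomes was set beside the 40. This list is not limited to genes whose products lie only in peroxisomes. It held 55 symbols, of which 48 were in the table and 40 were tested. With MSDC 12 were higher and 5 lower without Poly(I:C) (median 0.09), and 14 higher and 4 lower with it (median 0.17). The shares higher were 30% and 35%, against 11.1% and 12.5% of all genes tested, and the shares lower, 12.5% and 10%, were near or below the 12.4% and 13.6% of all genes. Dhrs7b, which completes the precursor of ether lipids, was higher by 1.64 and 1.53 on the log2 scale, Acsl1, which activates fatty acids, by 1.16 and 1.19, and Idi1, an isomerase of isoprenoid synthesis, by 1.13 and 0.87.

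The 2 genes named from among those that were lower are oxidases of other substrates. Xdh, which oxidises purines, stood at 24.0 and 21.3 TPM with vehicle and 12.2 and 11.0 with MSDC, and at 43.0 and 45.4 with Poly(I:C) and vehicle against 22.0 and 25.7 with Poly(I:C) and MSDC. Its log2 fold change with MSDC was -0.90 (adjusted p = 1.01e-06) and -0.85 (adjusted p = 8.65e-07). Paox, a polyamine oxidase, was lower by 1.77- and 1.51-fold (adjusted p = 0.000555 and 0.00635).

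Of 18 genes of mitochondrial fatty acid oxidation, 14 were higher and 1 lower with MSDC in each setting, with medians of 0.49 and 0.50. The share higher was 77.8% in each setting, against 11.1% and 12.5% of all genes tested and 37.5% and 50% of the 40 genes. The share lower was 5.56%, against 12.4% and 13.6% of all genes tested. The mitochondrial counterparts of enzymes described above moved less far than the largest peroxisomal ones, but not always less than their own peroxisomal counterparts. On the log2 scale, without and with Poly(I:C), peroxisomal Acaa1a was higher by 0.47 and 0.40, and Eci2 by 0.28 and 0.47. Peroxisomal Decr2 was not called, at 0.19 and 0.25. Acaa2, the mitochondrial thiolase, stood at 72.1 and 81.2 TPM with vehicle and 164 and 166 with MSDC, a log2 fold change of 1.13, and 1.17 with Poly(I:C). Eci1, the mitochondrial isomerase, was higher by 1.14 and 1.08, and Decr1, the mitochondrial reductase, was not called, at 0.14 (adjusted p = 0.419) and 0.12 (adjusted p = 0.463). Thus the median was higher for the mitochondrial list than for the 40 genes, and the upper end was higher for the 40 genes.

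**Figure D4:**
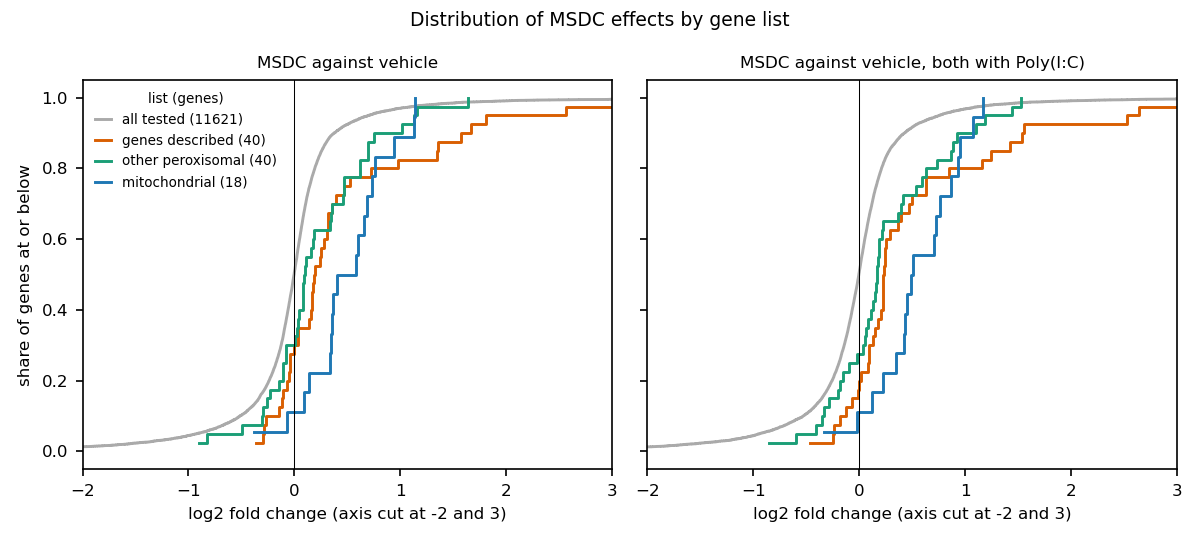
Cumulative share of genes at or below each log2 fold change with MSDC, without Poly(I:C) on the left and with it on the right, for all 11621 genes tested, the 40 genes described, the 40 other peroxisomal genes and 18 genes of mitochondrial oxidation; the axis is cut at -2 and 3, which leaves Acaa1b outside. The 40 genes leave the curve of all genes mainly above 0, with a median of 0.19 and 0.23, and the curve of the mitochondrial list crosses that of the 40 genes: its median is higher, at 0.49 and 0.50, and its highest values, 1.14 and 1.17, are lower than theirs.

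Among the peroxisome proliferator-activated receptors, their partners and coactivators, 5 of 7 genes were tested, and 4 were lower with MSDC in each setting (80%, against 12.4% and 13.6% of all genes tested). Pparg, the receptor on which alveolar macrophage development depends, stood at 189 and 197 TPM with vehicle, 122 and 117 with MSDC, 179 and 186 with Poly(I:C) and vehicle, and 116 and 122 with Poly(I:C) and MSDC. It was 1.56-fold lower (adjusted p = 1.39e-06) and 1.53-fold lower (adjusted p = 2.05e-06). Ppard was lower by 1.27- and 1.24-fold, Rxra by 1.30- and 1.28-fold, and the coactivator Ppargc1b by 1.66- and 1.37-fold. Ppara, the receptor known for raising these genes in liver, was at most 0.01 TPM in any library and was not tested.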

How the data were processed

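The data are 8 bulk RNA-seq libraries. The expected counts, read counts per the file headers and partly not whole, were deposited by the authors unscaled and were rounded here (5.95 to 7.19% of values in a library were not whole). The TPM values, named so per the file headers, were length- and depth-corrected by the authors and are used for levels. The FPKM values deposited beside them, also named per the file headers, were not used. Per the submitters' processing notes, the genome was GRCm38 (mm10) and the tools included Bowtie2 2.3.4, TopHat2 2.1.1 and Cuffdiff. The role of each, and whether counting used strand, are not given in the sources used here.

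Genes were filtered with filterByExpr, scaled by TMM (factors 0.985 to 1.027) and fitted with 1 quasi-likelihood model over 4 groups (R 4.3.3, edgeR 4.0.16), with 4 residual degrees of freedom. The 5 comparisons were MSDC without and with Poly(I:C), Poly(I:C) in vehicle and in MSDC cells, and the interaction, two-sided, each adjusted by Benjamini-Hochberg over 11621 genes. Standard errors were derived from the test statistic. The procedure was tested on simulated data. TPM ratios of the 40 genes differed from the fitted log2 fold changes by at most 0.117. Differences between the replicates of a group were nearly uncorrelated between groups (correlations -0.026 to 0.034). These values cannot tell whether replicates with the same number shared an animal or culture, which the labels do not say.

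Alternatives were library totals as scaling, no filter, DESeq2 1.42.0, limma 3.58.1 on log2(TPM + 1) and log2(TPM + 0.1), a replicate block, the compared groups alone, and leaving out each library. Values in every library are given for genes called with MSDC or in the interaction at an absolute log2 fold change of at least 0.58, for the 4 smallest p in each Poly(I:C) comparison, and for some others. The genes and lists were chosen with earlier results of these data known. Of the gene identifiers, 15419 (99.3%) were found in RefSeq. Acaa1a and Acaa1b transcripts were taken from GENCODE and promoters from RefSeq. Some genes of the lists are not reported here by name.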

Additional observations from a re-analysis of the deposited data

How the results depend on the processing

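Of 44 gene calls, 29 were kept under every alternative, up to 15 each, and 0 changed direction; those lost are named with the results. The count of genes higher with MSDC was 15 without Poly(I:C) (12 to 16 on leaving out 1 library) and 20 with it (15 to 20). The count lower was 2 in each setting, and 1 to 2 on leaving out 1 library. Without Poly(I:C) it was 1 with DESeq2 and 1 in the compared groups alone. With Poly(I:C) in vehicle cells, 1 gene was higher (0 to 1 on leaving out 1 library, 2 without the filter). The count lower there was 3, 1 to 5 on leaving out 1 library, 8 with library totals, 5 without the filter, 6 with DESeq2, 7 with limma at either pseudocount and 1 in the compared groups alone. In MSDC cells it was 1, 1 to 2 on leaving out 1 library, and 3 in the compared groups alone. The interaction called 0 genes under every alternative, while over all genes the share of interaction calls that were higher went from 53.8 to 77.8% with library totals. The replicate block gave 15 higher and 2 lower with MSDC, 20 and 2 with MSDC and Poly(I:C), 1 and 2 for Poly(I:C) in vehicle cells, and 0 and 1 in MSDC cells. It moved only the call for Pxmp4. Where a library was left out, the lone library of its group was assumed to vary like the others. With 2 libraries a group the spread is estimated mainly across genes, and Acot4 rests on the fewest counts.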
